A study of Mus musculus with 22 samples.

Results

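Renal magnesium handling was followed through 7 genes, Cldn16, Cldn19, Trpm6, Trpm7, Cnnm2, Slc41a3, and Egf, in 22 mouse kidneys. They were taken by symbol from a table of 32858 genes, and all 7 were among the 17131 genes with enough counts to be tested. The kidneys came from male C57Bl6/J mice aged 8 to 10 weeks and fell into 4 groups. Vehicle was given to 5 mice, KW6002 alone to 6, cisplatin alone to 5, and both drugs to another 6, called co-treated here. Cisplatin, a platinum drug toxic to the kidney, was injected intraperitoneally at 3 mg/kg on 6 days, and kidneys were taken 72 hours after the last injection. KW6002 (istradefylline), an adenosine receptor antagonist, was injected at 3 mg/kg daily from day -5 to day 7. Each mouse gave 1 library made from whole kidney, so that fewer cells of a segment and less RNA per cell cannot be told apart in any value below. The 22 libraries held 26471762 to 40510754 counts. Numbers in the 300s were carried by 3 vehicle mice and 3 KW6002 mice, whereas all 16 other mice, including every cisplatin-treated mouse, carried numbers in the 500s. What separates the number series is not given in the sources used here. The log2 fold changes of the members were also fitted within the 500s and with the number series as a covariate, and these values are given where they change a call.

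Filtered magnesium is taken back mainly in the thick ascending limb of Henle's loop, between cells, and the amount that leaves in urine is set in the distal convoluted tubule, through cells. In the thick ascending limb, claudin-16 and claudin-19 together form a cation-selective pore in the tight junction. In the distal convoluted tubule, magnesium enters through the apical channel TRPM6, which assembles with its relative TRPM7, and EGF made by the tubule itself stimulates TRPM6. CNNM2, a basolateral membrane protein, and SLC41A3, a member of a magnesium carrier family, act on the way out of the cell. Cisplatin is known to cause urinary magnesium loss.

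The members lay on 6 chromosomes of the mouse build mm10. Cldn16 (ENSMUSG00000038148) spanned chr16:26463135-26482765 on the plus strand, and Cldn19 (ENSMUSG00000066058) spanned chr4:119255414-119262438 on the plus strand. Trpm6 (ENSMUSG00000024727, chr19:18749983-18892511, plus) and Cnnm2 (ENSMUSG00000064105, chr19:46761596-46880192, plus) shared chromosome 19. Trpm7 (ENSMUSG00000027365) lay at chr2:126791565-126876230 on the minus strand, Slc41a3 (ENSMUSG00000030089) at chr6:90604725-90646412 on the plus strand, and Egf (ENSMUSG00000028017) at chr3:129677565-129755316 on the minus strand. Exons of Egf overlapped the antisense genes Gm42697 by 607 bases and 6330410L21Rik by 500 bases, and exons of Cldn19 overlapped the antisense gene Gm12927 by 90 bases. Whether strand was used in counting is not stated, so reads from these overlaps cannot be assigned with certainty.

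The 250 bases before the RefSeq start (build GRCm38.p6, the same sequence as mm10) are shown for 4 members: the claudin partners, whose RNA moved in opposite directions with cisplatin, and Egf and Cnnm2, which fell together by very different amounts. Each runs 5′ to 3′ on the gene's own strand and ends at the base before the start. The motifs searched, on both strands, were the HNF1 half-site GTTAAT, the TATA box TATAAA, the CCAAT box CCAAT, and the GC box GGGCGG. Capitals mark matches. Egf and Cldn19 have more than 1 RefSeq start, and the window of the first listed is shown.
Cldn16, chr16:26462885-26463134, plus strand: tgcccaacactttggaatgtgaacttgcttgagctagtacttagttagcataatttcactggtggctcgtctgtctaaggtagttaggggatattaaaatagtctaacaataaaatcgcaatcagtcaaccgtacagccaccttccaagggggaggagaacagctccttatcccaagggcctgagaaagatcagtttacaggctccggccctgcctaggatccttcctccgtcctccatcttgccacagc
Cldn19, chr4:119255191-119255440, plus strand: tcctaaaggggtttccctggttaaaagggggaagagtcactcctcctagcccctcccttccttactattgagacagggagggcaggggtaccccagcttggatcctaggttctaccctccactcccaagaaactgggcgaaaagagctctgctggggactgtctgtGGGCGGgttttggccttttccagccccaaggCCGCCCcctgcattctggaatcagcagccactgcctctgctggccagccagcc
Cnnm2, chr19:46761359-46761608, plus strand: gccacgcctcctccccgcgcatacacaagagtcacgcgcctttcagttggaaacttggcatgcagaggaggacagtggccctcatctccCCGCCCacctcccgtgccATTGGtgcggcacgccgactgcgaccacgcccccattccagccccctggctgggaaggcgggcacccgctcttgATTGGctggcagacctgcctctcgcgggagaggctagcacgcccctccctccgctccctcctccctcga
Egf, chr3:129755323-129755572, minus strand: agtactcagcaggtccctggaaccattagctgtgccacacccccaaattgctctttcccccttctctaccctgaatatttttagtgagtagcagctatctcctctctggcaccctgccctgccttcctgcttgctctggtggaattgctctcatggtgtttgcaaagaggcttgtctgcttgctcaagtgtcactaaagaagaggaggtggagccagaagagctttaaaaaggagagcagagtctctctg

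Cnnm2 was the only member with a CCAAT box in its window, with 2 reverse matches 143 and 69 bases before the start, and 33.8% of 32851 windows of this length held one. GC boxes were present in Cnnm2 and in Cldn19, and in 32.7% of all windows. None of the 7 members held GTTAAT or TATAAA in these windows. Over all windows 6.43% and 12.4% did, so their absence from 7 genes is no contrast. The window of Slc41a3 (chr6:90618996-90619245), which is not shown, lies inside the span given above for that gene. The window of Cldn16 was 48.0% G or C and that of Cldn19 59.2%, around the median of 52.4% over all windows, and that of Cnnm2 reached 68.0%. These are letters in a short window and say nothing about which factors act there.

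Values are given as CPM, counts scaled to library size with TMM factors. Levels of different genes were compared as CPM per kilobase of exon. In vehicle kidneys, Egf stood highest at 225 ± 45.2 CPM per kb (SD, n = 5), followed by Trpm7 at 22.02 ± 0.712. Cldn16 (9.92 ± 1.41), Cldn19 (9.66 ± 3.79), and Cnnm2 (7.13 ± 0.680) came next, and the ranges of neighbors in this order overlapped. Trpm6 (3.00 ± 0.407) and Slc41a3 (1.75 ± 0.390) were lowest and did not overlap. With cisplatin the order changed. Cldn19 stood first at 14.7 ± 1.79 CPM per kb (n = 5), overlapping Trpm7 at 12.6 ± 0.768, followed by Egf at 6.73 ± 1.22. Slc41a3 (2.00 ± 0.125) now lay above Trpm6 (1.21 ± 0.184) without overlap. With cisplatin plus KW6002, Egf (27.8 ± 14.1, n = 6), Trpm7 (20.5 ± 0.738), Cldn19 (15.8 ± 3.68), and Cldn16 (11.8 ± 2.97) each overlapped the next. In mice given KW6002 alone, Egf (226 ± 27.1, n = 6) and Trpm7 (21.3 ± 1.84) kept the first places.

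**Figure D1:**
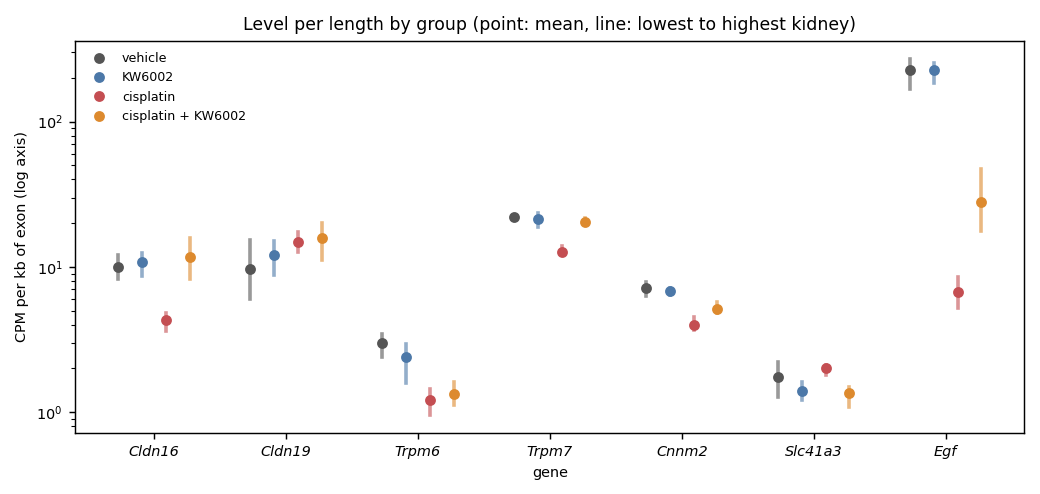
Level of each gene per kilobase of exon (CPM per kb, log axis) in the 4 groups; points are group means and lines run from the lowest to the highest kidney. Egf drops from 225 to 6.73 CPM per kb with cisplatin, below Cldn19 at 14.7.

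Each member was read from 1 edgeR quasi-likelihood fit over all 17131 genes and 22 libraries and called at a Benjamini-Hochberg adjusted p below 0.05. Cisplatin lowered 5 of the 7 members (Egf, Trpm6, Cldn16, Cnnm2, and Trpm7) and raised Cldn19, and Slc41a3 was not called. Over all genes, 35.9% were called lower and 34.6% higher in this comparison, so a call alone was common. The median log2 fold change was -0.84 over the 7 members and -0.01 over all genes. A stricter rule, log2 fold change below -1 and adjusted p below 0.01, was met by Egf, Trpm6, and Cldn16 and by 12.1% of all genes.

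**Figure D2:**
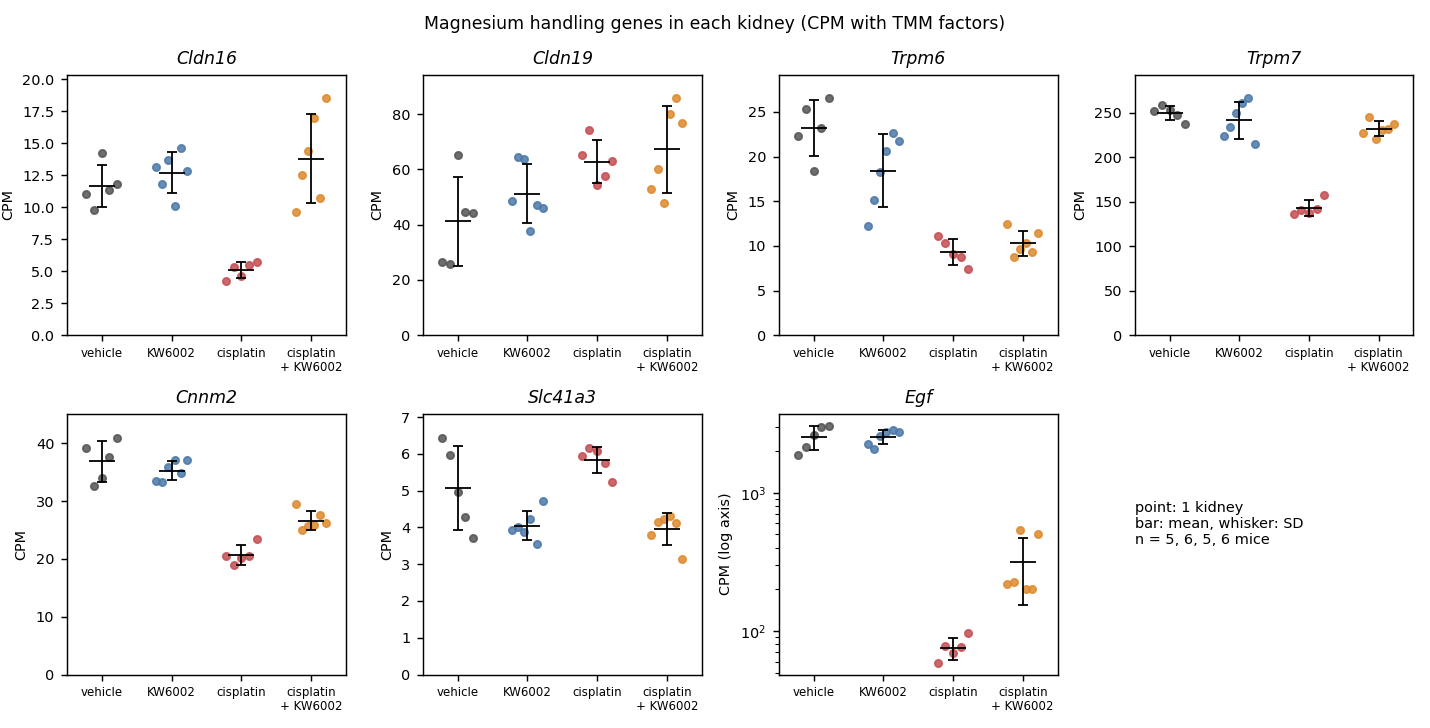
CPM of each magnesium handling gene in every kidney of the 4 groups, with the mean (bar) and SD (whisker); the Egf axis is logarithmic and the others start at 0. Cldn16, Trpm7, Cnnm2, and Egf are lower in all 5 cisplatin kidneys than in any vehicle kidney. They are higher in all 6 co-treated kidneys than in any cisplatin kidney. The share of all genes that separate in this way was not counted. Of all genes, 70.5% were called with cisplatin against vehicle and 55.8% with co-treatment against cisplatin, so such separation may be common.

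The claudin partners parted. Cldn16 measured 11.04, 9.74, 14.2, 11.3, and 11.8 CPM in the 5 vehicle kidneys and 4.24, 5.30, 4.66, 5.51, and 5.69 CPM in the 5 cisplatin kidneys. The groups did not overlap. Cldn16 was 2.29-fold lower with cisplatin (log2 fold change -1.20 ± 0.15 SE, adjusted p = 3.43e-07). In the 6 co-treated kidneys it ranged from 9.66 to 18.5 CPM with a median of 13.5, above every cisplatin kidney and across the vehicle range. Cldn16 was thus 2.72-fold higher with cisplatin plus KW6002 than with cisplatin (log2 fold change 1.44 ± 0.15, adjusted p = 3.49e-08). Against vehicle the co-treated kidneys showed a log2 difference of 0.25 ± 0.14 that was not called (adjusted p = 0.141), although it was called with co-treated replicate 1 left out (0.33, adjusted p = 0.0381) and under scaling by library size only (0.40, adjusted p = 0.0138).

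Cldn19 measured 26.6, 25.6, 65.0, 44.4, and 44.2 CPM in vehicle kidneys and 65.0, 74.1, 54.2, 57.6, and 63.1 CPM in cisplatin kidneys. Vehicle replicate 3 lay within the cisplatin range, and the other 4 vehicle kidneys lay below it. Cldn19 was 1.52-fold higher with cisplatin (log2 fold change 0.61 ± 0.21, adjusted p = 0.0136), with an adjusted p between 0.000799 and 0.0459 as each library was left out in turn. Co-treated kidneys ranged from 47.9 to 85.7 CPM with a median of 68.4, overlapping the cisplatin kidneys (log2 difference 0.10 ± 0.20, adjusted p = 0.696). They were 1.63-fold above vehicle (log2 fold change 0.71 ± 0.20, adjusted p = 0.00487). Fat marker RNA (Adipoq, Plin1, Cidec, Cfd, and Lep) summed to 50.3 to 749 CPM in vehicle kidneys, 207 to 429 CPM in cisplatin kidneys, and 6.05 to 247 CPM in co-treated kidneys, and 4 of these 5 genes were called lower in co-treated than in vehicle kidneys. With the mean of these genes as a covariate, the difference of Cldn19 between co-treated and vehicle kidneys was 0.37 and was no longer called (adjusted p = 0.148).

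The ratio of Cldn16 to Cldn19 was computed within each kidney as a difference of log2(CPM + 0.5). It lay between -2.15 and -1.23 in vehicle kidneys and between -3.79 and -3.27 in cisplatin kidneys, with no overlap. The ratio was 3.48-fold lower with cisplatin (difference -1.80, exact permutation test, two-sided, p = 0.00794, adjusted p = 0.0136 over 36 tests of 9 ratios in 4 comparisons). That p is the smallest that 5 against 5 mice can give. In co-treated kidneys the ratio lay between -2.94 and -1.70, 2.39-fold above cisplatin (exact permutation p = 0.00433, adjusted p = 0.0111, the smallest that 5 against 6 can give). It was 0.54 below vehicle on the log2 scale, which did not pass (exact permutation p = 0.0606, adjusted p = 0.0873) but did without co-treated replicate 3 (-0.65, adjusted p = 0.026).

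The thick ascending limb was present in every group by its markers. Slc12a1, Umod, Kcnj1, Ptger3, and Cldn10 summed to 4896 to 8079 CPM in vehicle kidneys, 2136 to 2468 CPM with cisplatin, and 2540 to 4522 CPM with cisplatin plus KW6002, and all 5 were called lower with cisplatin. Relative to the mean log2 level of these 5 markers, Cldn16 differed by 0.33 between cisplatin and vehicle kidneys, which did not pass (exact permutation p = 0.0873, adjusted p = 0.116). It passed at an adjusted p of 0.0476 without vehicle replicate 1. Cldn19 rose 4.36-fold relative to the same markers (exact permutation p = 0.00794, adjusted p = 0.0136), and every cisplatin kidney lay above every vehicle kidney. With cisplatin plus KW6002, Cldn16 was 1.30-fold higher relative to the markers than with cisplatin (exact permutation p = 0.013, adjusted p = 0.0203). This difference was -0.18 on the log2 scale when Slc12a1 alone stood for the segment (adjusted p = 0.262). Cldn19 was 1.84-fold lower relative to the markers with cisplatin plus KW6002 than with cisplatin (exact permutation p = 0.00433, adjusted p = 0.0111). Its own level was not called different there, and 4 of the 5 markers were called higher.

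**Figure D3:**
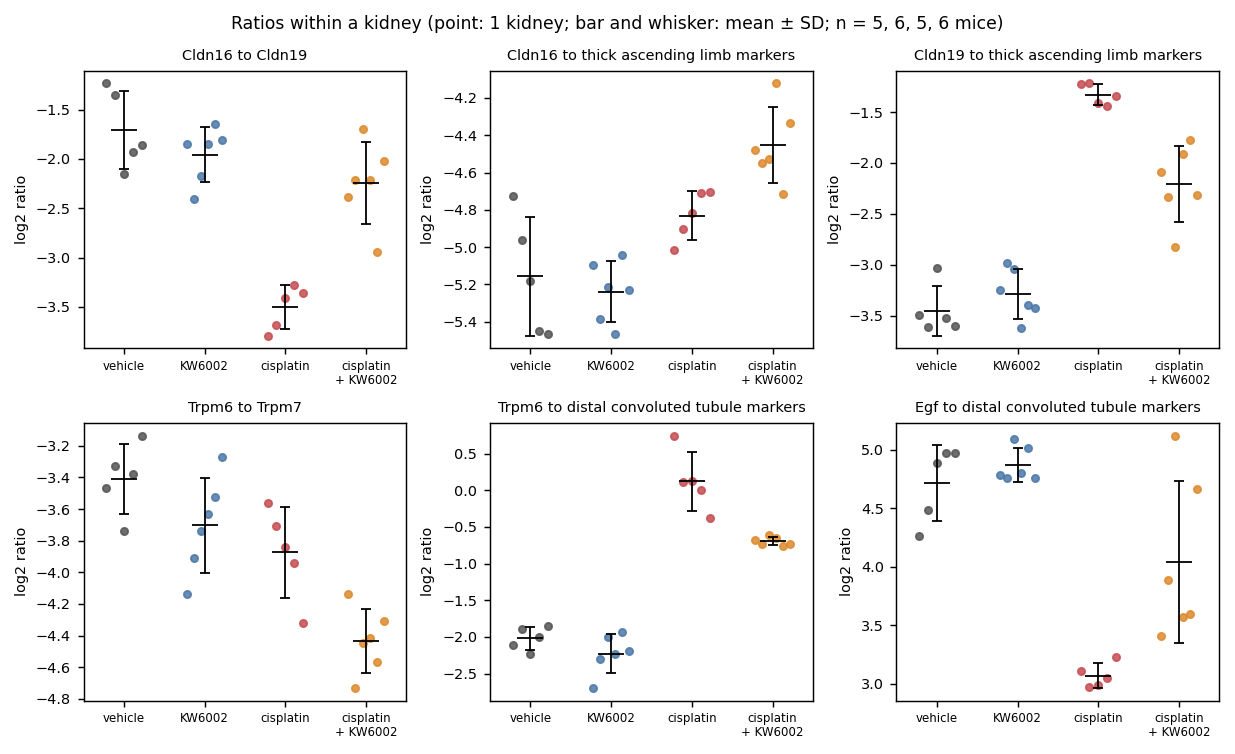
A selection of log2 ratios within each kidney, computed on log2(CPM + 0.5), in the 4 groups; points are kidneys, bars are means, and whiskers are SD. The ratio of Cldn16 to Cldn19 is at or below -3.27 in all 5 cisplatin kidneys and at or above -2.94 in all other kidneys.

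The channels of the TRPM family fell together but differed in their response to KW6002. Trpm6 measured 22.2, 25.3, 18.4, 23.2, and 26.5 CPM in vehicle kidneys and 11.1, 10.3, 9.11, 8.75, and 7.42 CPM in cisplatin kidneys. It was 2.48-fold lower with cisplatin (log2 fold change -1.31 ± 0.15, adjusted p = 4.56e-08). The 6 co-treated kidneys ranged from 8.72 to 12.4 CPM with a median of 9.98, overlapping the cisplatin kidneys and lying below every vehicle kidney. The difference between co-treated and cisplatin kidneys was 0.14 ± 0.14 on the log2 scale (adjusted p = 0.415), and co-treated kidneys remained 2.25-fold below vehicle (adjusted p = 2.49e-07). In mice given KW6002 alone, Trpm6 ranged from 12.2 to 22.6 CPM with a median of 19.4, with a log2 difference from vehicle of -0.33 ± 0.14 that was not called (adjusted p = 0.356). The 3 mice of that group numbered in the 300s measured 12.2 to 18.2 CPM and the 3 in the 500s measured 20.6 to 22.6 CPM.

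Trpm7, which unlike Trpm6 is expressed in most cell types, measured 251.4, 259, 252.4, 247, and 237 CPM in vehicle kidneys and 136, 141, 137, 141, and 158 CPM in cisplatin kidneys. It had the smallest spread of the 7 members in vehicle kidneys, with a coefficient of variation of 3.24%. Trpm7 was 1.75-fold lower with cisplatin (log2 fold change -0.80 ± 0.06, adjusted p = 1.72e-11). The 6 co-treated kidneys ranged from 220.0 to 244 CPM with a median of 231. They lay 1.62-fold above the cisplatin kidneys without overlap (log2 fold change 0.70 ± 0.05, adjusted p = 5.41e-10), and their difference from vehicle was -0.10 ± 0.05 and was not called (adjusted p = 0.0989). A fit of the 2 groups alone called that difference (-0.11, adjusted p = 0.045), and scaling by library size only turned it to 0.05 (adjusted p = 0.395). The ratio of Trpm6 to Trpm7 was 1.38-fold lower with cisplatin than with vehicle (exact permutation p = 0.0238, adjusted p = 0.0357) and another 1.48-fold lower with cisplatin plus KW6002 (exact permutation p = 0.013, adjusted p = 0.0203). The first of these lost its adjusted p below 0.05 in 7 of the fits that left out 1 library, namely without vehicle replicate 1, 2, 4, or 5 or cisplatin replicate 3, 4, or 5 (adjusted p between 0.0686 and 0.0714). Against vehicle, the co-treated ratio was 2.04-fold lower, and all 6 co-treated kidneys lay below all 5 vehicle kidneys (exact permutation p = 0.00433, adjusted p = 0.0111).

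Cnnm2 took a middle course. It measured 39.2, 32.6, 34.0, 37.5, and 40.97 CPM in vehicle kidneys and 20.5, 18.9, 20.1, 20.5, and 23.4 CPM in cisplatin kidneys, 1.78-fold lower (log2 fold change -0.84 ± 0.07, adjusted p = 1.14e-10). Co-treated kidneys ranged from 25.0 to 29.4 CPM with a median of 26.02, and lay between the other groups without overlapping either. They were 1.29-fold above cisplatin (log2 fold change 0.36 ± 0.06, adjusted p = 3.85e-05) and 1.39-fold below vehicle (log2 fold change -0.47 ± 0.06, adjusted p = 1.01e-06).

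Slc41a3 was the one member that KW6002 lowered in cisplatin-treated mice. It measured 6.44, 5.98, 4.97, 4.30, and 3.71 CPM in vehicle kidneys and 5.94, 6.15, 6.08, 5.75, and 5.24 CPM in cisplatin kidneys. The cisplatin values lay inside the vehicle range, and the log2 difference of 0.20 ± 0.12 was not called (adjusted p = 0.156). Co-treated kidneys ranged from 3.15 to 4.32 CPM with a median of 4.14, below every cisplatin kidney and 1.47-fold lower (log2 fold change -0.56 ± 0.12, adjusted p = 0.00041). The vehicle mice themselves differed by number series: the 3 in the 300s measured 4.97 to 6.44 CPM and the 2 in the 500s measured 3.71 to 4.30 CPM. Among mice in the 500s, cisplatin kidneys lay above vehicle kidneys (log2 fold change 0.54, adjusted p = 0.00317), as they did without vehicle replicate 1 (0.30, adjusted p = 0.0341). Against vehicle, co-treated kidneys were lower by a log2 fold change of -0.36 ± 0.12 (adjusted p = 0.0148), but within the 500s the difference was -0.02 (adjusted p = 0.937). This call was also lost without vehicle replicate 1 (-0.26, adjusted p = 0.0734) or 2 (-0.29, adjusted p = 0.0517) and with the fat marker mean (-0.23, adjusted p = 0.223) or the number series (-0.23, adjusted p = 0.167) as a covariate. Scaling by library size only (-0.20, adjusted p = 0.173) and a fit of the 2 groups alone (-0.36, adjusted p = 0.0522) lost it too. The gene is weakly expressed, with 101 to 245 counts per library.

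Egf moved furthest. It measured 1889.9, 2146, 2627, 2972, and 3058 CPM in vehicle kidneys and 59.0, 77.99, 69.6, 76.2, and 96.6 CPM in cisplatin kidneys. The cisplatin level was 2.99% of the vehicle level, a 33.5-fold fall (log2 fold change -5.06 ± 0.29, adjusted p = 4.5e-13). Co-treated kidneys measured 218, 225, 533.9, 201, 199.7, and 501 CPM, and replicates 3 and 6 lay apart from the other 4. All 6 were above every cisplatin kidney and below every vehicle kidney. Egf was 4.13-fold higher with cisplatin plus KW6002 than with cisplatin (log2 fold change 2.05 ± 0.25, adjusted p = 3.4e-07) and stood at 12.3% of vehicle (log2 fold change -3.02 ± 0.24, adjusted p = 5.86e-10). In KW6002 mice the values ranged from 2082 to 2845 CPM with a median of 2659, inside the vehicle range. In both of these groups the 500s mice were higher than the 300s mice: 2972 to 3058 CPM against 1889.9 to 2627 CPM with vehicle, and 2749 to 2845 CPM against 2082 to 2568 CPM with KW6002.

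**Figure D4:**
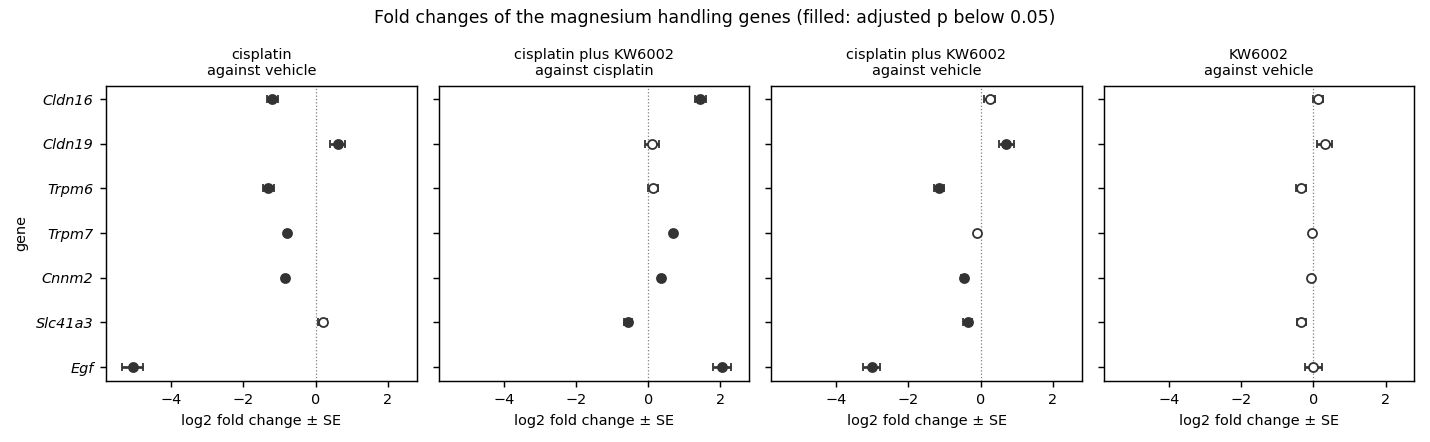
Log2 fold change (x axis) of each gene in 4 comparisons, with the SE from the edgeR fit; filled points have an adjusted p below 0.05. Egf has the largest fall with cisplatin (-5.06) and the largest rise with cisplatin plus KW6002 against cisplatin (2.05), and no point is filled for KW6002 against vehicle.

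Co-treated kidneys against cisplatin kidneys thus gave 4 members called higher (Egf, Cldn16, Trpm7, and Cnnm2), 1 lower (Slc41a3), and 2 not called. Over all genes, 28.6% were called higher and 27.2% lower, and the median log2 fold change was 0.36 over the members and 0.01 over all genes. The stricter rule, now with a log2 fold change above 1, was met by Egf and Cldn16 and by 4.65% of all genes. Against vehicle, co-treated kidneys had 4 members called lower (Egf, Trpm6, Cnnm2, and Slc41a3) and Cldn19 called higher, where 29.9% and 29.8% of all genes were called lower and higher. Comparisons with cisplatin share the same 5 cisplatin kidneys and those with vehicle the same 5 vehicle kidneys, so a fall in one and a rise in the next are not independent.

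KW6002 alone changed none of the 7 members at an adjusted p below 0.05 in edgeR or in DESeq2, and edgeR called 0.0175% of all genes. Trpm6 and Slc41a3, each with a log2 difference of -0.33, were the 2 members with an unadjusted p below 0.05 in that fit, as were 11.3% of all genes. Whether KW6002 acted differently in cisplatin-treated and other mice was tested as an interaction. The term was positive and called for Egf (2.04 ± 0.33, adjusted p = 3.82e-05), Cldn16 (1.32 ± 0.20, adjusted p = 2.16e-05), Trpm7 (0.75 ± 0.08, adjusted p = 1.04e-07), and Cnnm2 (0.43 ± 0.09, adjusted p = 0.000463). Trpm6 gave 0.47 ± 0.20 (adjusted p = 0.058), and Cldn19 and Slc41a3 gave -0.22 ± 0.28 and -0.23 ± 0.17, neither called. Over all genes, 22.8% had a called positive interaction and 19.9% a negative one.

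The distal convoluted tubule markers Slc12a3, Pvalb, Klhl3, and Emx1 summed to 1679 to 1753 CPM in vehicle kidneys, 61.3 to 113 CPM with cisplatin, and 193 to 415 CPM with cisplatin plus KW6002, and all 4 were called lower with cisplatin. The 4 markers changed by -7.62 (Pvalb), -4.59 (Slc12a3), -2.17 (Emx1), and -1.87 (Klhl3) on the log2 scale. A gene that cisplatin leaves unchanged is therefore higher relative to their mean, so a higher ratio alone shows no rise of the member itself. A higher ratio also does not place the member's RNA in this segment. For Slc41a3, the log2 difference of the gene itself was 0.20 and was not called, but it was 0.54 within the 500s (adjusted p = 0.00317). With co-treatment 3 of the markers were called higher than with cisplatin, which lowers the ratios in turn. Egf fell 3.13-fold further than the mean log2 marker level (exact permutation p = 0.00794, adjusted p = 0.0136), whereas Trpm6, Cnnm2, and Slc41a3 were 4.40-fold, 6.01-fold, and 12.2-fold higher relative to it with cisplatin, each with the same p. In all of these ratios the 5 cisplatin kidneys lay on one side of the 5 vehicle kidneys. The difference for Egf did not hold when Slc12a3 alone stood for the segment (log2 difference -0.40, adjusted p = 0.13). These ratios take log2(CPM + 0.5), which understates the fall of a marker near 0 such as Pvalb. An understated marker fall enlarges the further fall of Egf and makes the higher ratios of Trpm6, Cnnm2, and Slc41a3 smaller. Relative to the markers, Trpm6 was 1.75-fold lower with cisplatin plus KW6002 than with cisplatin, Cnnm2 1.51-fold lower, and Slc41a3 2.75-fold lower (exact permutation p = 0.00433, adjusted p = 0.0111 for each). For Trpm6, the SD of this ratio on the log2 scale was 0.06 over the 6 co-treated kidneys and 0.41 over the 5 cisplatin kidneys. Egf was 1.96-fold higher relative to the markers (exact permutation p = 0.00433, adjusted p = 0.0111), a difference of 0.04 with Slc12a3 alone (adjusted p = 0.97).

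Relative to the thick ascending limb markers, Egf was 12.2-fold lower with cisplatin (exact permutation p = 0.00794, adjusted p = 0.0136) and 1.95-fold higher with cisplatin plus KW6002 than with cisplatin (exact permutation p = 0.00433, adjusted p = 0.0111). The latter was 0.41 on the log2 scale and did not pass with Slc12a1 alone (adjusted p = 0.234). None of the 9 ratios differed between KW6002 and vehicle at an adjusted p below 0.05, the lowest exact permutation p being 0.113.

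Other lists moved in the same kidneys, and their part in the members' values was not tested. Proximal tubule markers summed to 14146 to 14912 CPM with vehicle, 1114 to 2247 CPM with cisplatin, and 4897 to 7681 CPM with cisplatin plus KW6002. Fibroblast markers summed to 136 to 321, 575 to 739.7, and 254 to 479 CPM in the same order. Red cell globin RNA summed to 62.2 to 389 CPM with vehicle and at most 0.201 and 0.471 CPM in the cisplatin and co-treated kidneys.

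Another 45 genes of magnesium handling were listed in 4 groups by role, and all were tested. With cisplatin, 13 were called higher and 24 lower, where 34.6% of all genes were called higher and 35.9% lower. Co-treated kidneys had 20 called higher and 11 lower than cisplatin kidneys, where 28.6% and 27.2% of all genes were. For KW6002 alone edgeR called none, where 0.0175% of all genes were called. There, 6 had an unadjusted p below 0.05, as did 11.3% of all genes.

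Of 11 genes listed for the loop by role, 8 fell with cisplatin and none rose (35.9% and 34.6% of all genes), and 6 were higher and 1 lower in co-treated than in cisplatin kidneys (28.6% and 27.2% of all genes). RNA of these genes from other segments was not separated, so the fall of a listed gene such as Pth1r cannot be assigned to the loop. Casr, the calcium-sensing receptor that restrains transport in this segment, fell from 68.5 ± 6.75 CPM (SD, n = 5) to 8.09 ± 1.08 CPM (n = 5), a log2 fold change of -3.08 ± 0.11 (adjusted p = 1.64e-16), and stood at 22.6 ± 3.00 CPM in co-treated kidneys (n = 6). Pth1r, the parathyroid hormone receptor, fell by 1.84 on the log2 scale (adjusted p = 1.39e-11) and, at 0.22 ± 0.12 above cisplatin, was not called in co-treated kidneys (adjusted p = 0.114). Kcnj1, the apical potassium channel, fell by 1.60 (adjusted p = 1.37e-11) and rose by 1.01 with co-treatment (adjusted p = 4.84e-08). Slc12a1, the sodium-potassium-chloride cotransporter that drives magnesium uptake here, also fell by 1.60 (adjusted p = 1.88e-06), rose by 1.54 (adjusted p = 4.59e-06), and differed from vehicle by -0.06 in co-treated kidneys (adjusted p = 0.824).

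Of 10 distal tubule genes, 8 fell with cisplatin and 1, Egfr, rose, against 35.9% and 34.6% of all genes. In co-treated kidneys 6 were higher and none lower than with cisplatin, against 28.6% and 27.2% of all genes. Pvalb, a calcium-binding protein of this segment, had 485 to 632 counts per library with vehicle, 0 to 6 with cisplatin, and 5 to 18 with cisplatin plus KW6002. Slc12a3, the sodium-chloride cotransporter, fell by 4.59 on the log2 scale (adjusted p = 5.22e-14) and rose by 1.88 with co-treatment (adjusted p = 5.6e-08). Klhl3, which controls the turnover of the kinases upstream of that cotransporter, fell by 1.87 (adjusted p = 5.08e-14) and was not called higher with co-treatment (0.15, adjusted p = 0.159). Kcnj10, a basolateral potassium channel, fell by 1.52 (adjusted p = 5.06e-13) and rose by 1.03 (adjusted p = 9.61e-10). Egfr, the receptor through which EGF acts on TRPM6, was 0.55 ± 0.10 above vehicle on the log2 scale with cisplatin (adjusted p = 4.02e-05), in the kidneys in which Egf was 33.5-fold lower. In co-treated kidneys, where Egf was 4.13-fold higher than with cisplatin, Egfr was 0.58 above vehicle (adjusted p = 1.89e-05). Its difference from cisplatin kidneys was 0.04 and was not called (adjusted p = 0.771). Whether the values of Egf and Egfr are linked was not tested. Egfr was named after its value was seen.

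**Figure D5:**
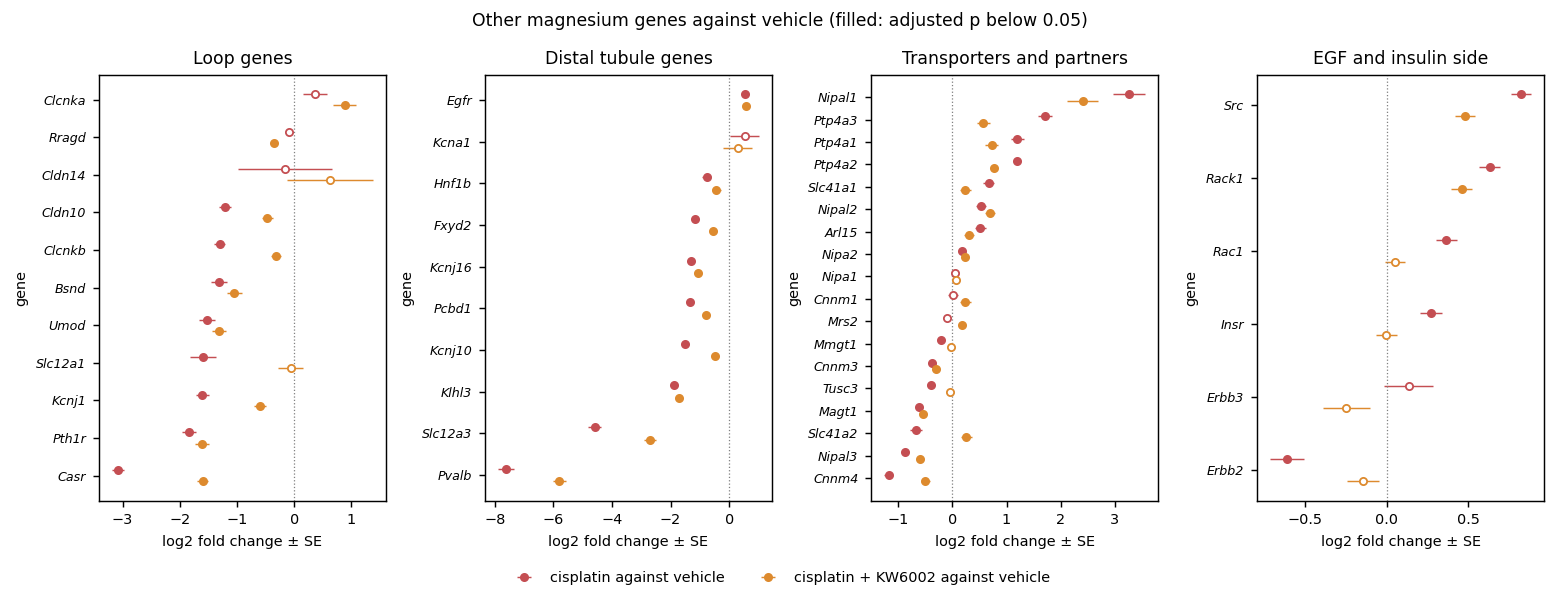
Log2 fold change against vehicle (x axis, with SE) of 45 other magnesium genes in 4 groups by role, for cisplatin (red) and cisplatin plus KW6002 (orange); filled points have an adjusted p below 0.05. Most loop and distal tubule genes lie left of 0 (8 of 11 and 8 of 10 called lower with cisplatin), and transporters and their partners lie on both sides.

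Of 18 magnesium transporters and their binding partners, 8 rose and 7 fell with cisplatin, where 34.6% and 35.9% of all genes did. Co-treated kidneys had 7 higher and 5 lower than cisplatin kidneys, where 28.6% and 27.2% of all genes were. The 4 with the largest change all rose. The largest fall came close behind, in Cnnm4 at -1.18 on the log2 scale (adjusted p = 2.72e-11). Nipal1, a magnesium transporter, went from 2.27 ± 1.34 CPM to 21.9 ± 3.02 CPM (log2 fold change 3.26 ± 0.30, adjusted p = 1.26e-09). The phosphatases Ptp4a3, Ptp4a1, and Ptp4a2, which bind CNNM proteins, rose by 1.71, 1.20, and 1.19 on the log2 scale (adjusted p = 3.29e-11, 6.52e-09, and 5.36e-15). All 4 were lower in co-treated than in cisplatin kidneys: Nipal1 by -0.86 (adjusted p = 0.00483), Ptp4a3 by -1.14 (adjusted p = 2.68e-08), Ptp4a1 by -0.47 (adjusted p = 0.000954), and Ptp4a2 by -0.43 (adjusted p = 1.5e-07).

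Of 6 genes on the receptor and kinase side of EGF and insulin action on TRPM6, 4 rose and 1 fell with cisplatin (34.6% and 35.9% of all genes), and 1 was higher and 5 lower in co-treated than in cisplatin kidneys (28.6% and 27.2% of all genes). Src, the kinase downstream of the EGF receptor, rose by 0.82 (adjusted p = 5.97e-11), Rack1, an intracellular inhibitor of TRPM6, by 0.63 (adjusted p = 1.05e-08), and Rac1, a GTPase of the same path, by 0.37 (adjusted p = 2.95e-05). Erbb2, a partner of the EGF receptor, fell by 0.61 (adjusted p = 2.08e-05).

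Patterns were compared over the 22 libraries as the root mean square difference of log2 CPM after centring each gene on its vehicle mean, among 10427 genes (10428 for Slc41a3) whose average log2 CPM was 3 or more. The libraries share their groups, so these values describe likeness only. Trpm7 and Cnnm2 were the closest pair of members, at 0.22 on the log2 scale, and Egf and Cldn19 the farthest, at 3.45. The genes nearest Egf were Ces1e (0.46) and Sugct (0.49), and those nearest Trpm6 were Sdc2 (0.21) and Oxgr1 (0.23). Those nearest Trpm7 were Hook2 (0.084) and Pitrm1 (0.090), and those nearest Cnnm2 were Caprin1 (0.095) and Cdadc1 (0.096). Cldn16 was nearest to Rilp (0.24) and Guca2b (0.25), Cldn19 to Sept4 (0.20) and L1cam (0.26), and Slc41a3 to Ifi27 (0.18) and Rad51d (0.18).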

How the data were processed

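Kidney RNA was sequenced, 1 library per mouse. Per the labels and methods, the authors made poly(A) libraries with a stranded kit and read 50 bases from 1 end. STAR 2.5.3a aligned the reads to mm10, and those with a unique alignment were counted by gene with HTSeq 0.6.1p1 (union mode, Ensembl 90 and 102). Their own comparisons used DESeq2. The deposited values are counts, whole reads per gene that were not normalized. Another 66 columns without name or value were not used. Positions and overlaps came from GENCODE M21 and start windows from RefSeq.

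Counts were analyzed with edgeR 4.0.16 (filterByExpr, TMM, 1 mean per group over 22 libraries, quasi-likelihood F test, Benjamini-Hochberg adjustment over 17131 genes). The SE is the log2 fold change divided by the square root of F. The steps were tested on simulated data. Ratios within a kidney were compared by exact permutation over mice. Totals had a median of 32721214.5 counts, and the biological coefficient of variation was 0.129. No replicate pair agreed within sampling noise (chi-square per degree of freedom of at least 2.91).

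Named were the members, the 4 genes of each list with the largest called change with cisplatin, and the 2 genes nearest each member in pattern. Egfr and Cnnm4 were named besides, after their values were seen. The members and lists were chosen with earlier results of these data known. Alternatives were DESeq2 1.42.0, other scalings, filters, and thresholds, fits of the groups compared only, the replicate block, the number series, the fat marker mean, other segment markers and pseudocounts, and each library left out.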

Additional observations from a re-analysis of the deposited data

Results flagged for a closer look

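Trpm7 in cisplatin replicate 5 stood apart from the other cisplatin kidneys, at 158 CPM against 136 to 141 CPM. It was the 1 of 28 gene and group combinations in which the highest or lowest kidney passed Dixon's 95% limit, where chance alone gives about 1 in 20. Without this library, the log2 fold change of Trpm7 with cisplatin was -0.84, against -0.80 with it.

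The effect of KW6002 differed between cisplatin-treated and other mice for 4 members, by an interaction term in edgeR: Egf by 2.04 on the log2 scale, Cldn16 by 1.32, Trpm7 by 0.75, and Cnnm2 by 0.43. A called interaction was found for 42.7% of all genes. Within mice numbered in the 500s the terms of these 4 members were 2.16, 1.33, 0.67, and 0.48, each with an adjusted p below 0.05, where 34.1% of all genes were called.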

How the results depend on the processing

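The counts of members called with cisplatin (6), with co-treatment against cisplatin (5), and in the interaction (4) stayed within 1.5 times under every alternative but the stricter threshold. In the main fit, 70.5%, 55.8%, and 42.7% of all genes were called in these comparisons. The stricter threshold (adjusted p below 0.01 and log2 fold change beyond 1) left 3 with cisplatin, 2 with co-treatment against cisplatin, 2 with co-treatment against vehicle, and 2 in the interaction. It was met by 12.1% of all genes as a fall with cisplatin and by 4.65% as a rise with co-treatment against cisplatin. The share was not counted for co-treatment against vehicle or for the interaction. The fat marker mean as a covariate left 3 called with co-treatment against vehicle, where 49.9% of all genes were called. It also turned Cldn19, co-treatment against cisplatin, to -0.33. With 1 library left out, the counts were 6 to 7 with cisplatin, 5 with co-treatment against cisplatin, 4 to 6 with co-treatment against vehicle, 4 to 5 in the interaction, and 0 for KW6002. The ratios that passed were 7 to 8 of 9 with cisplatin, 9 with co-treatment against cisplatin, and 7 to 9 with co-treatment against vehicle. Among mice in the 500s, 0 ratios passed with cisplatin and 0 with co-treatment against vehicle, because 2 vehicle mice allow no adjusted p below 0.05.

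The replicate numbers were not taken to pair the mice. Deviations of same-numbered samples correlated between -0.18 and 0.40, above 0.1 in 7 of 31 pairs, and in 10 a sample was nearest its own number. These values cannot exclude a pairing. The replicate block changed no call of a member. Under it, Egf with cisplatin was -5.05, and Egf with KW6002 alone was -0.069. The other changes of sign concerned values that were not called, except the co-treatment ratio of Cldn16 to the limb markers, which was -0.18 with Slc12a1 alone. Egf with KW6002 was -0.0012 without a filter, -0.021 with the number series as a covariate, -0.12 in the 500s, and -0.085 to 0.080 with 1 library left out. In the 500s, KW6002 against vehicle gave Trpm7 0.031, Cldn19 -0.025, and Slc41a3 0.056, and the Cldn19 interaction was 0.13. The ratios there were 0.21 for Cldn16 and 0.0011 for Egf to the thick ascending limb markers, -0.11 for Egf, -0.11 for Cnnm2, and 0.047 for Slc41a3 to the distal convoluted tubule markers, and 0.13 for Cldn16 to Cldn19. With 1 library left out, the KW6002 ratio of Cldn16 to the limb markers ran from -0.16 to 0.025, positive without vehicle replicate 1. Scaling by library size only moved the median over all genes, as a log2 fold change, from -0.01 to 0.20 with cisplatin and to 0.16 with co-treatment against vehicle, where Trpm7 became 0.052. The share of called genes that were higher then went from 49.1% to 65.8% and from 50% to 67.7%, and in the interaction from 53.4% to 42.5%. For KW6002 alone, edgeR called 3 of all genes and DESeq2 called 46 higher and 53 lower. The cause was not tested.

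The Trpm6 interaction passed with the number series (0.53, adjusted p = 0.014) or the fat marker mean (0.53, adjusted p = 0.0458) as a covariate and with vehicle replicate 3, KW6002 replicate 5 or 6, cisplatin replicate 1, or co-treated replicate 2 left out (adjusted p between 0.0313 and 0.0451). It did not pass within the 500s (0.35, adjusted p = 0.148) or with the replicate block (0.47, adjusted p = 0.0795). The cisplatin call of Slc41a3 appeared under scaling by library size only (0.42) and with the number series as a covariate (0.33, adjusted p = 0.0452), and its interaction call in the 500s (-0.61, adjusted p = 0.0177).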
